A study of Mus musculus with 4 samples.

Results

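The genes described here make fatty acids and phospholipids, or take up and store lipid, in the embryonic lung at E18.5. They are a list of 39 genes with these functions, chosen with earlier results of these data known, so that counts over the list are descriptions. Each gene was read from a probe set that carries its symbol and no other. Where a gene had several such probe sets, the one with the highest mean over the 4 arrays was taken. Of the 39 genes, 36 were measured in this way, out of 19938 genes in all. *Acsl3* and *Chkb* share their only probe set with another symbol, and *Acsl1* was not analysed here. The tissue was whole lung of C57BL/6 embryos at day E18.5, with 2 arrays labelled KO, from Hmga2-/- embryos, and 2 labelled WT, from Hmga2+/+ embryos. No other allele and no treatment is given, and the mutant line was kept as Hmga2+/- mice. Both WT titles carry 1 group name, so that their origin in separate embryos rests on the label of biological replicates, and whether lungs were pooled is not stated. The arrays ask how the loss of HMGA2, a chromatin protein of undifferentiated cells, changes the transcripts of the lung shortly before birth. Values are log2 expression values, so that a difference of 1 is a factor of 2, and every difference is KO minus WT.

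At this stage the distal epithelium of the lung prepares to secrete surfactant, a film of lipid and protein that keeps the air spaces open after birth. Its main lipid is phosphatidylcholine with saturated chains. Alveolar type II cells build these chains from acetyl-CoA with fatty acid synthase, lengthen and desaturate part of them, and join them to glycerol and choline. The transcription factor SREBP-1, encoded by *Srebf1*, drives many enzymes of this route in liver and lung. Fatty acids also reach the lung from the blood, where lipoprotein lipase on capillaries frees them and CD36 and fatty acid-binding proteins carry them.

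The labels were checked against the targeted gene first. The *Hmga2* probe set had log2 values of 9.65 and 9.39 in the arrays labelled KO and of 9.35 and 9.59 in the WT arrays, so that the groups overlapped (difference 0.051, standard error 0.16, adjusted p = 0.892). Whether its probes lie in the deleted part is not known here, and all directions are those of the arrays as labelled. As a check of the tissue, *Sftpc*, a surfactant protein of alveolar type II cells, had values of 13.97 to 14.13 on the 4 arrays, where the highest value of any gene was 14.39. The array least like the others was WT replicate 1, with correlations over probe sets of 0.976 with each array labelled KO and 0.985 with WT replicate 2, whereas the other 3 arrays correlated at 0.992 to 0.997. An exact permutation test of 2 arrays against 2 cannot give a two-sided p below 0.333. Tests were therefore made with limma over all 19938 genes, with p values adjusted by Benjamini and Hochberg's method, and the number of arrays limits their precision.

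As a group the lipid genes lay lower in the arrays labelled KO. A lower mean was found for 31 of the 36 measured genes and a higher mean for 5, where 58.8% of all genes had a lower mean. The median difference was −0.31, against −0.051 over all genes, and it was −0.27 without *Scd1*. Both arrays labelled KO lay below both WT arrays for 23 of the 36 genes and above both for 3, where the shares over all genes were 31.8% and 17.6%. Of the members, 3 had an adjusted p under 0.05 in limma, all of them lower, where 0.782% of all genes passed and 0.702% passed with a lower mean. These were *Scd1*, *Fabp5* and *Cd36*. In whole tissue, fewer cells of a type and less RNA per cell cannot be told apart. At an unadjusted p under 0.05, 16 members were lower and 1 was higher, where 8.58% and 5.88% of all genes were. No filter on low values was applied, so all 36 entered these counts. Leaving out WT replicate 1 gave 10 called members, all lower, where 8.22% of all genes were called, and leaving out WT replicate 2 gave 17 lower and 1 higher, where 31.6% of all genes were. Without KO replicate 1 or KO replicate 2 it was 0, where 1 and 0 of all genes were called and 9 and 7 members had an unadjusted p under 0.05.

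**Figure D1:**
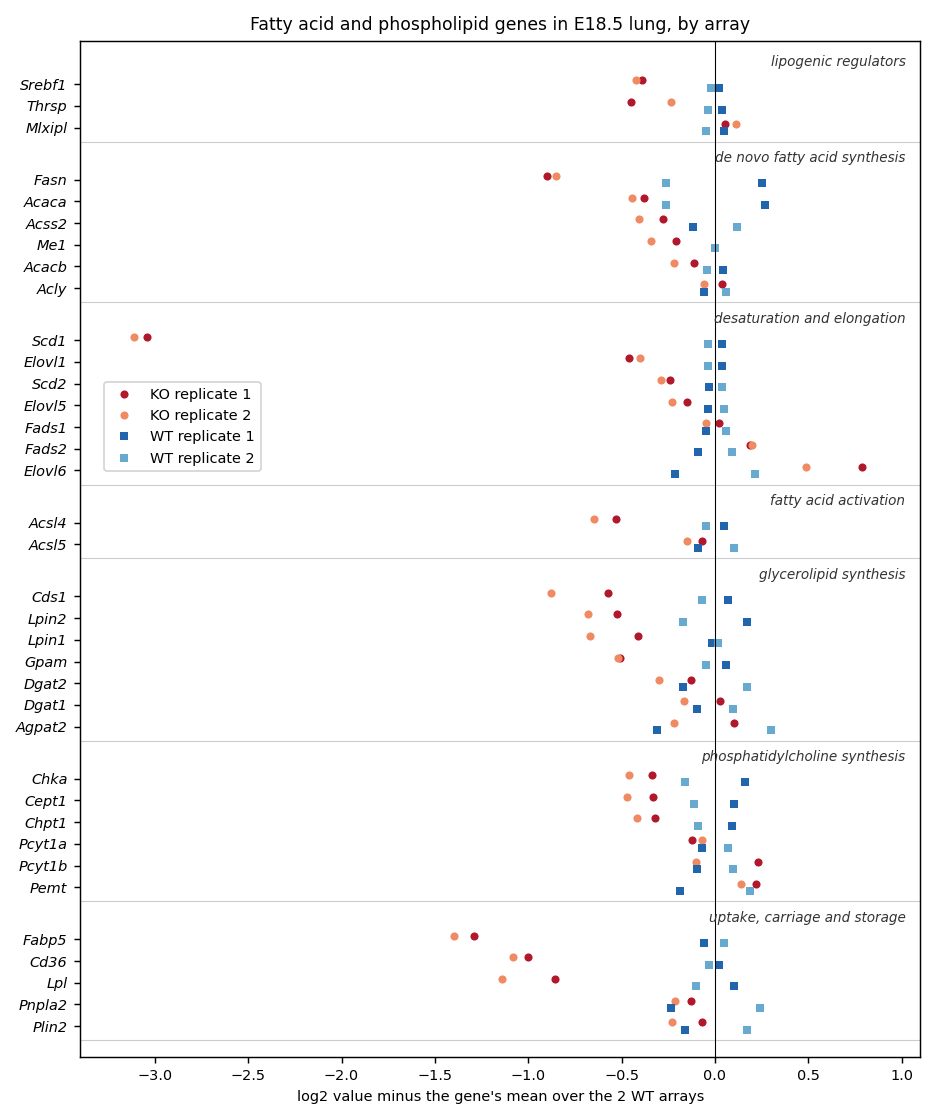
Each row is a measured gene, grouped by role, and each point is 1 array, as the log2 value minus the mean of the gene over the 2 WT arrays (circles, arrays labelled KO; squares, WT arrays). *Scd1* lies about 3 log2 units below WT on both arrays labelled KO, *Fabp5*, *Cd36* and *Lpl* lie about 1 unit below, and *Elovl6* is the gene farthest above.

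Of the 3 lipogenic regulators among the members, *Srebf1* had the most negative difference, and none passed the test over all genes. *Srebf1* encodes SREBP-1, which switches on enzymes of fatty acid synthesis. It had log2 values of 10.02 and 9.99 in the arrays labelled KO and of 10.43 and 10.39 in the WT arrays (difference −0.40, standard error 0.12, adjusted p = 0.220). The replicates of each group lay close together (SD 0.027 and 0.026), and the groups did not overlap. *Thrsp*, a protein that promotes lipogenesis in liver and fat, had 6.80 and 7.02 in the arrays labelled KO and 7.29 and 7.21 in the WT arrays (difference −0.34, standard error 0.14, adjusted p = 0.333). *Mlxipl*, which encodes the glucose-responsive factor ChREBP, had 7.73 and 7.79 in the arrays labelled KO and 7.72 and 7.63 in the WT arrays. Its groups lay side by side, and its difference was 0.083 with a 95% interval of −0.22 to 0.39.

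The 6 genes listed for fatty acid synthesis include suppliers of acetyl-CoA and NADPH. Each of the 6 had a lower mean in KO, where 58.8% of all genes did. For 5 of the 6, both arrays labelled KO lay below both WT arrays, where 31.8% of all genes did so. None of the 6 passed the test over all genes. *Fasn*, fatty acid synthase, had the largest difference of the 6. Its log2 values were 11.58 and 11.63 in the arrays labelled KO and 12.73 and 12.22 in the WT arrays, which is 1.83-fold lower (difference −0.87, standard error 0.19, adjusted p = 0.112). The WT arrays differed by more than the arrays labelled KO, so that leaving out WT replicate 1 gave −0.62 and leaving out WT replicate 2 gave −1.13. *Acaca*, acetyl-CoA carboxylase 1, which makes the malonyl-CoA that fatty acid synthase uses, also had its highest value in WT replicate 1, with 10.04 and 9.98 in the arrays labelled KO and 10.69 and 10.16 in the WT arrays (difference −0.42, standard error 0.19, adjusted p = 0.390). Its difference was −0.15 without WT replicate 1, and on a second probe set of the gene it was −0.57. *Acss2*, which makes acetyl-CoA from acetate, had a difference of −0.34, and of −0.23 without WT replicate 2. *Me1*, malic enzyme, which supplies NADPH, had −0.27 with −0.26 on a second probe set, and *Acacb*, the mitochondrial carboxylase whose product limits fatty acid oxidation, had −0.17. In contrast, *Acly*, which splits citrate into acetyl-CoA, had values of 11.22 and 11.12 in the arrays labelled KO and of 11.12 and 11.24 in the WT arrays. The groups of *Acly* overlapped, and its difference of −0.010 had a 95% interval of −0.33 to 0.31.

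To show what lies before the start sites of such genes, the promoters of the members were searched in the RefSeq table of build GRCm38.p6 over the 250 bases before each start. The table matched 32 of the 39 genes, with 47 promoters. No entry was matched for *Scd1*, *Scd2*, *Fads1*, *Dgat1*, *Dgat2*, *Lpl* and *Fabp5*. The letters searched on both strands were TCACNCCAC, a form of the sterol regulatory element bound by SREBP, CACGTG, the E-box, and CCAAT, the Y box bound by NF-Y. The first was in 4 of the 47 promoters (8.51%) and in 1.05% of all 32851 promoters of the table. These 4 promoters belong to only 3 genes, *Acsl1*, *Mlxipl* and *Pcyt1a*, of which *Acsl1* was not measured. The second motif was in 3 promoters (6.38%) and in 6.02% of all, and the third in 23 (48.9%) and in 33.8%. Promoters of 1 gene can overlap and share a match. Shown are *Cd36*, the member past the test that the table holds, *Fasn*, and *Pcyt1a* and *Mlxipl*, the measured members with the sterol regulatory letters, each 5′ to 3′ with the matches in capitals. *Pcyt1a* and *Mlxipl* have other promoters in the table as well. They lie at chr5:17835897-17836146 (minus strand) for *Cd36*, chr11:120824548-120824797 (minus strand) for *Fasn*, chr16:32430671-32430920 (plus strand) for *Pcyt1a* and chr5:135106641-135106890 (plus strand) for *Mlxipl*.
Cd36 promoter: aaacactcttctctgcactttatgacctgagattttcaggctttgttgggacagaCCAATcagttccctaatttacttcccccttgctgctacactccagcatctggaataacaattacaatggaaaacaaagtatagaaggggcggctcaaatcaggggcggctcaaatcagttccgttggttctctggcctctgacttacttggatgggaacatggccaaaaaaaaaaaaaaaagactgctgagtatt
Fasn promoter: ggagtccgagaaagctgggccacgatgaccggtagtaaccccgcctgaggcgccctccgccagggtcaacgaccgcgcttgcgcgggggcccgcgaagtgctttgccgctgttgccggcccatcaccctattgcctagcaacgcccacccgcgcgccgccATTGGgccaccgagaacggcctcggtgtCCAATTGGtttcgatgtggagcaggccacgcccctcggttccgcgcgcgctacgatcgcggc
Pcyt1a promoter: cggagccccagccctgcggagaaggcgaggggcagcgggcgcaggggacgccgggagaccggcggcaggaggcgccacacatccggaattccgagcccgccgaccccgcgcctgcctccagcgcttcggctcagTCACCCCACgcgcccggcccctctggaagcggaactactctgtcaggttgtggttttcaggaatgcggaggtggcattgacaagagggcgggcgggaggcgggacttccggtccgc
Mlxipl promoter: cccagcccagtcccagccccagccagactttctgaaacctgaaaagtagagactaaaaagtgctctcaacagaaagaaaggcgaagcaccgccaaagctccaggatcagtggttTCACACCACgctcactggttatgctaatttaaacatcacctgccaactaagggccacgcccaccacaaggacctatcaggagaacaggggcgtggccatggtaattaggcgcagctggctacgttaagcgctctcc
In *Cd36* a CCAAT began 195 bases before the start. In *Fasn* a CCAAT on the gene's strand began 62 bases before the start and overlapped one on the opposite strand at 59 bases, and another on the opposite strand lay at 90 bases. In *Pcyt1a* and *Mlxipl* the sterol regulatory letters began 116 and 136 bases before the start, and these genes had differences of −0.098 and 0.083. A match is a run of letters and not a measured binding site.

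The stearoyl-CoA desaturases had unequal differences. *Scd1*, stearoyl-CoA desaturase 1, which puts the first double bond into saturated chains, had log2 values of 10.24 and 10.17 in the arrays labelled KO and of 13.32 and 13.24 in the WT arrays. It fell by 3.07 on the log2 scale, an 8.42-fold lower level (standard error 0.13, adjusted p = 0.00149), and ranked 8 from the lowest difference among all 19938 genes. The replicates of *Scd1* had SDs of 0.049 and 0.056. *Scd2*, the second desaturase of this kind and prominent in embryonic tissue, had 13.29 and 13.24 in the arrays labelled KO and 13.50 and 13.57 in the WT arrays. Its groups did not overlap either, but its difference was −0.27 (standard error 0.13, adjusted p = 0.390) with a 95% interval of −0.57 to 0.034. The ratio of *Scd1* to *Scd2* within an array changed by −2.80 on the log2 scale between the groups (means −3.06 ± 0.014 and −0.25 ± 0.11, SD, n = 2 each; exact permutation test, two-sided p = 0.333, the smallest this design allows). The *Scd* genes are neighbours on chromosome 19 with no other coding gene between them. The other genes of the cluster had differences of −0.22 for *Scd3* and −0.68 for *Scd4*, with adjusted p values of 0.474 and 0.253. Both had low values, 6.25 to 6.57 for *Scd3* and 5.80 to 6.92 for *Scd4*, where the medians of the arrays were 7.91 to 8.02. These genes resemble each other in sequence, and how far a probe set takes up transcripts of its neighbours was not tested. The desaturases of polyunsaturated chains, *Fads1* and *Fads2*, are also neighbours on that chromosome. *Fads1* had 11.71 and 11.64 in the arrays labelled KO and 11.64 and 11.75 in the WT arrays (difference −0.016, 95% interval −0.32 to 0.29). *Fads2* had 11.33 and 11.34 in the arrays labelled KO and 11.05 and 11.23 in the WT arrays (difference 0.20, 95% interval −0.12 to 0.52), and its difference was 0.11 without WT replicate 1.

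The elongases had differences of both signs. *Elovl6*, the elongase that turns palmitate into stearate, was the member with the largest positive difference and the one member higher at an unadjusted p under 0.05. It had log2 values of 10.36 and 10.06 in the arrays labelled KO and of 9.36 and 9.79 in the WT arrays, which is 1.56-fold higher (difference 0.64, standard error 0.19, adjusted p = 0.208). The 4 values of *Elovl6* were spread within both groups, and leaving out WT replicate 1 gave 0.42 and leaving out WT replicate 2 gave 0.85. *Elovl1*, an elongase of saturated and monounsaturated long chains, had 11.04 and 11.10 in the arrays labelled KO and 11.54 and 11.46 in the WT arrays (difference −0.43, standard error 0.13, adjusted p = 0.206). *Elovl5*, an elongase of polyunsaturated chains, had 11.67 and 11.59 in the arrays labelled KO and 11.78 and 11.87 in the WT arrays (difference −0.19, standard error 0.13, adjusted p = 0.511). How far the probe sets of these elongases take up each other's transcripts was not tested. The ratio of *Elovl6* to *Elovl1* thus changed by 1.06 on the log2 scale (means −0.86 ± 0.25 in the arrays labelled KO and −1.93 ± 0.36 in the WT arrays, SD, n = 2 each; exact permutation test, two-sided p = 0.333).

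**Figure D2:**
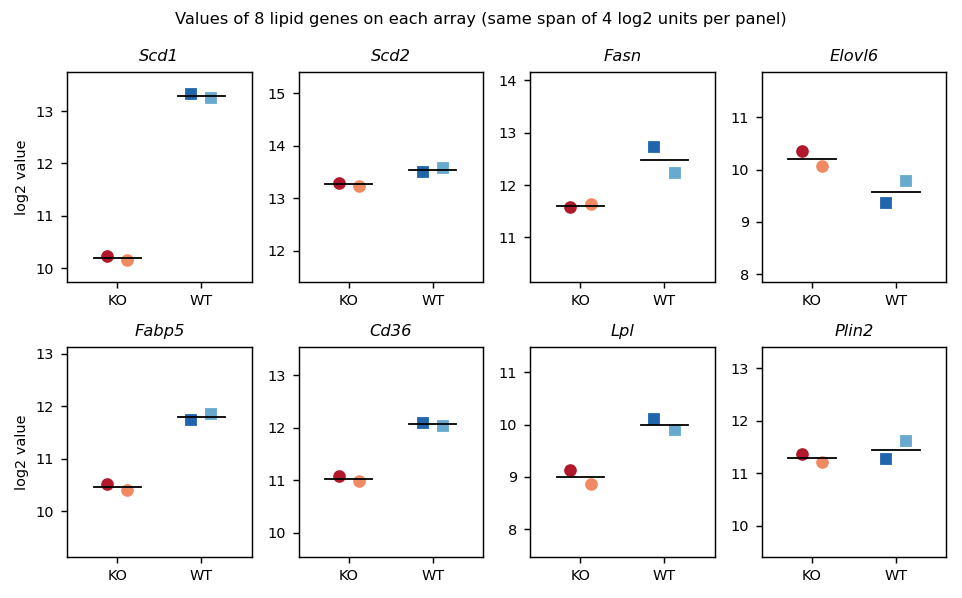
Log2 values of 8 members on each array, with the group mean as a bar (circles, arrays labelled KO, replicate 1 left; squares, WT arrays, replicate 1 left). Each panel spans 4 log2 units, so distances can be compared between panels. *Scd1* shows a difference of −3.07 with close replicates, *Scd2* one of −0.27, and *Plin2* overlapping groups.

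For each of the 9 measured genes that activate fatty acids or join them to glycerol the mean was lower in KO, and none passed the test over all genes. Both arrays labelled KO lay below both WT arrays for 4 of the 7 glycerolipid genes and 1 of the 2 measured activating genes. Over all genes this held for 31.8%, and the mean was lower for 58.8%. *Acsl4*, an acyl-CoA synthetase that prefers arachidonic acid, had log2 values of 10.27 and 10.15 in the arrays labelled KO and of 10.85 and 10.75 in the WT arrays (difference −0.59, standard error 0.13, adjusted p = 0.122), whereas *Acsl5*, another synthetase of the family, had 10.78 and 10.70 in the arrays labelled KO and 10.76 and 10.95 in the WT arrays (difference −0.11, adjusted p = 0.708). *Gpam*, the mitochondrial acyltransferase that starts glycerolipid synthesis, had 11.30 and 11.29 in the arrays labelled KO and 11.87 and 11.76 in the WT arrays (difference −0.52, standard error 0.13, adjusted p = 0.149). The replicates of *Gpam* were close in both groups (SD 0.0056 and 0.079). *Lpin1* and *Lpin2*, phosphatidate phosphatases that make diacylglycerol, had similar differences. *Lpin1* had 9.23 and 8.98 in the arrays labelled KO and 9.63 and 9.66 in the WT arrays (difference −0.54, standard error 0.14, adjusted p = 0.167). *Lpin2* had 9.28 and 9.12 in the arrays labelled KO and 9.97 and 9.63 in the WT arrays (difference −0.60, standard error 0.16, adjusted p = 0.17). *Cds1*, which leads phosphatidate to CDP-diacylglycerol and so to phosphatidylinositol and phosphatidylglycerol, the second class of surfactant phospholipid, had the largest difference of the group. It had 9.41 and 9.11 in the arrays labelled KO and 10.06 and 9.92 in the WT arrays, which is 1.65-fold lower (difference −0.73, standard error 0.15, adjusted p = 0.109). Of the acyltransferases that make triacylglycerol, *Dgat1* had −0.070 and *Dgat2* −0.21, with overlapping groups and 95% intervals of −0.42 to 0.28 and −0.60 to 0.18. *Agpat2*, which adds the second acyl chain, had 10.57 and 10.25 in the arrays labelled KO and 10.16 and 10.77 in the WT arrays, so that the arrays of each group lay on both sides of those of the other (difference −0.053, 95% interval −0.60 to 0.49).

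Of the 6 measured genes that make phosphatidylcholine, 4 had a lower mean and 2 a higher one, and none passed the test over all genes. *Chka*, choline kinase alpha, had log2 values of 9.44 and 9.31 in the arrays labelled KO and of 9.94 and 9.62 in the WT arrays (difference −0.40, standard error 0.16, adjusted p = 0.324). Leaving out WT replicate 1 gave −0.24 for *Chka*. *Chpt1* and *Cept1*, which join CDP-choline to diacylglycerol, had similar differences. *Chpt1* had 10.41 and 10.31 in the arrays labelled KO and 10.82 and 10.64 in the WT arrays (difference −0.37, standard error 0.14, adjusted p = 0.292), and *Cept1* had 10.31 and 10.17 in the arrays labelled KO and 10.74 and 10.53 in the WT arrays (difference −0.39, standard error 0.14, adjusted p = 0.288). Both arrays labelled KO lay below both WT arrays for these 3 genes and for *Pcyt1a*, where 31.8% of all genes did so. *Pcyt1a*, the enzyme that makes CDP-choline between these steps and sets the pace of the pathway, had a difference of −0.098 (adjusted p = 0.733). Its values were 9.677 and 9.729 in the arrays labelled KO and 9.731 and 9.872 in the WT arrays. The 95% interval of *Pcyt1a*, −0.41 to 0.22, held the differences of *Chka*, *Chpt1* and *Cept1*. Its second form, *Pcyt1b*, had overlapping groups and a difference of 0.062. *Pemt*, which makes phosphatidylcholine from phosphatidylethanolamine, mainly in liver, had the highest difference of the 6 measured genes, with 7.90 and 7.82 in the arrays labelled KO and 7.49 and 7.87 in the WT arrays. The difference of *Pemt*, 0.18, rested on WT replicate 1 and was −0.0091 without it.

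Uptake and carriage of fatty acids held 2 of the 3 genes past the test, and the groups of both storage genes overlapped. *Fabp5*, the epidermal fatty acid-binding protein, which is made in alveolar type II cells, had log2 values of 10.52 and 10.41 in the arrays labelled KO and of 11.75 and 11.86 in the WT arrays. It fell by 1.34, a 2.53-fold lower level (standard error 0.13, adjusted p = 0.0172), and a second probe set of the gene had −1.35. *Cd36*, the fatty acid translocase of endothelium, macrophages and epithelium, had 11.07 and 10.99 in the arrays labelled KO and 12.09 and 12.04 in the WT arrays. It fell by 1.04, a 2.05-fold lower level (standard error 0.13, adjusted p = 0.0291). *Lpl*, lipoprotein lipase, missed the threshold narrowly, with 9.14 and 8.86 in the arrays labelled KO and 10.10 and 9.90 in the WT arrays (difference −1.0, standard error 0.16, adjusted p = 0.0577). With every array kept and the threshold at 0.05, *Lpl* passed under cyclic loess, after the filter on dim genes, and with the array number as a block, plain or crossed. These settings called 1.68% to 3.02% of all genes, against 0.782% in the main fit. *Lpl* missed after median centring, with probe sets averaged, and with trend and robust in eBayes (limma, adjusted p = 0.0535, 0.0602 and 0.0578). With 1 array left out, its difference ran from −1.14 to −0.86. *Plin2*, the coat protein of lipid droplets that marks lipofibroblasts, had 11.37 and 11.21 in the arrays labelled KO and 11.28 and 11.61 in the WT arrays. Its groups overlapped, and the 95% interval of its difference of −0.16 was −0.54 to 0.23. *Pnpla2*, adipose triglyceride lipase, which opens the breakdown of stored fat, overlapped likewise (difference −0.17, 95% interval −0.61 to 0.27).

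Medians of the other lists of lipid genes lay between −0.11 and 0.078. Of 47 measured further genes of fatty acid and phospholipid synthesis, 25 had a lower and 22 a higher mean (median −0.046). None of the 47 passed the test. At an unadjusted p under 0.05, 4 were lower and 2 higher, which is near the shares of 8.58% and 5.88% over all genes. The 4 lower ones were *Lpcat1*, the acyltransferase that remodels phosphatidylcholine for surfactant, at −0.54 (standard error 0.12, adjusted p = 0.128), *Scd4*, *Agpat3* (−0.38) and *Cds2* (−0.32), and the 2 higher ones were the elongases *Elovl2* (0.65) and *Elovl4* (0.47). Single arrays moved some of these values, to 0.24 for *Elovl2* and −0.36 for *Scd4* without WT replicate 1 and to 0.27 for *Elovl4* without KO replicate 1. *Lpcat1* had 12.09 and 12.13 in the arrays labelled KO and 12.65 and 12.65 in the WT arrays. Of 17 further regulators, 10 had a lower and 7 a higher mean (median −0.067). The SREBP regulators *Insig1* (−0.45) and *Insig2* (−0.33) were the 2 with an unadjusted p under 0.05, and *Pparg*, a factor of lipogenic cells, had −0.28 (adjusted p = 0.417). *Scap*, which escorts SREBP to the Golgi, had the largest positive difference of that list, 0.35 (adjusted p = 0.432), and 0.098 without WT replicate 1. Fatty acid oxidation, the opposite route, had 14 of 22 genes with a higher mean and a median of 0.078, and cholesterol synthesis, which SREBP-2 drives, had 11 of 17 with a higher mean and a median of 0.046. Both medians were negative without WT replicate 1, at −0.11 and −0.078, and that of oxidation was also negative without KO replicate 1, at −0.015. No gene of either list passed the test. In oxidation *Pdk4*, a kinase that spares glucose for fat, had −0.71 (adjusted p = 0.110), the only gene of that list at an unadjusted p under 0.05. In cholesterol synthesis *Dhcr7* (0.48) and *Hsd17b7* (0.41) were the genes at that level, and *Dhcr7* had 0.23 without WT replicate 1. Further genes of uptake, droplets and lipolysis had 19 of 27 with a lower mean (median −0.11). *Abhd5*, the activator of the lipase encoded by *Pnpla2*, had −0.81 (standard error 0.13, adjusted p = 0.0577), and *Gpihbp1*, which holds lipoprotein lipase on capillary endothelium, had −0.69 (standard error 0.12, adjusted p = 0.0758). *Angptl4*, an inhibitor of lipoprotein lipase, had 9.02 and 8.86 in the arrays labelled KO and 7.99 and 8.46 in the WT arrays (difference 0.71, standard error 0.18, adjusted p = 0.162). *Fabp7*, a fatty acid-binding protein of embryonic tissue, had the largest positive difference of that list, 1.40 (standard error 0.34, adjusted p = 0.145), and 0.85 without WT replicate 1.

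**Figure D3:**
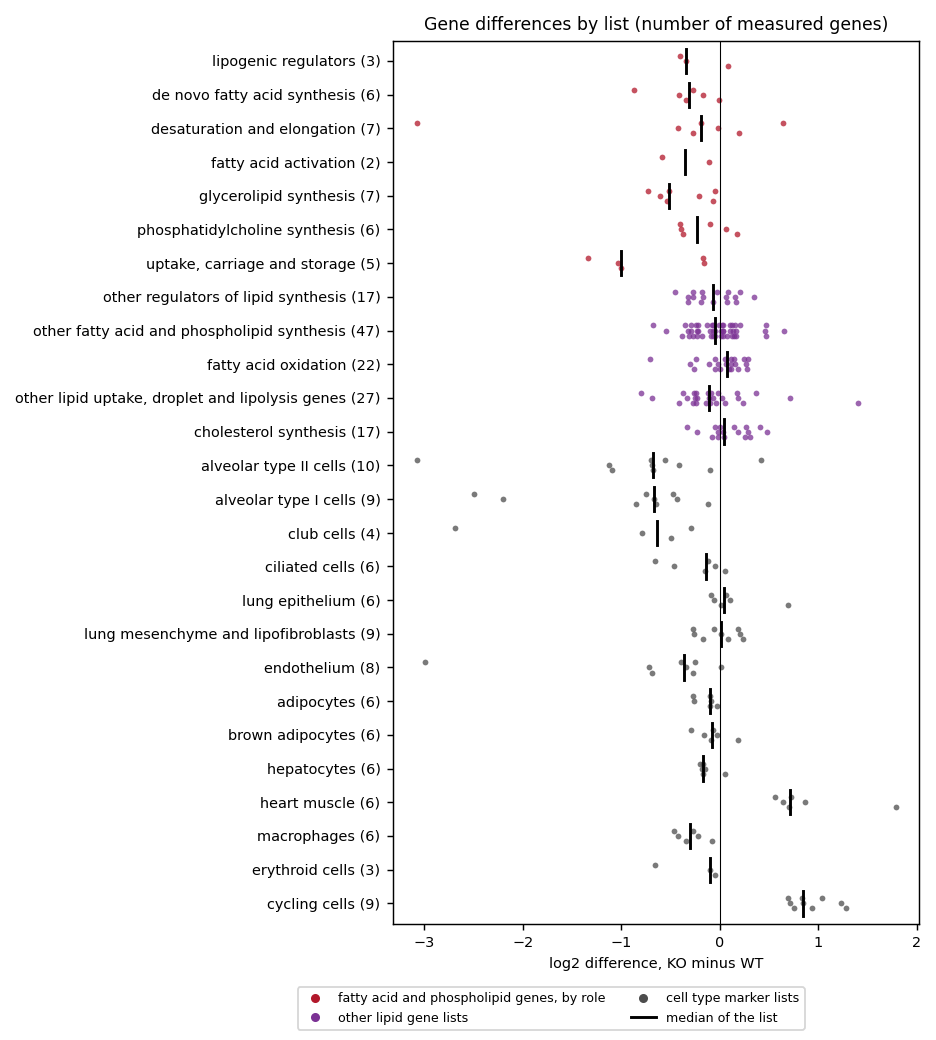
Each point is a measured gene as its log2 difference, KO minus WT, and the bar is the median of its list. Red points are the fatty acid and phospholipid genes by role, purple points other lipid lists and grey points cell type markers. Medians of the roles lie between −1.0 and −0.19, and those of fatty acid oxidation and cholesterol synthesis at 0.078 and 0.046, which turned negative without WT replicate 1.

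Lists of cell type markers were read beside the lipid genes. Of 10 markers of alveolar type II cells, 9 had both arrays labelled KO below both WT arrays, where 31.8% of all genes did. The other marker, *Etv5*, had both arrays labelled KO above both WT arrays, where 17.6% of all genes did (difference 0.41, standard error 0.13, adjusted p = 0.232). The median of the 10 was −0.68, and *Sftpa1* (−1.10), *Lamp3* (−1.12) and *Sftpd* (−3.07) passed the test. *Sftpc*, their defining marker, had 13.97 and 14.01 in the arrays labelled KO and 14.13 and 14.05 in the WT arrays (difference −0.096, adjusted p = 0.728). The summed level of the 10 markers, on a linear scale, was 50118 to 50445 in the arrays labelled KO and 71857 to 73622 in the WT arrays, and that of the 36 lipid genes was 53676 to 56796 and 79511 to 79951. Without *Scd1*, the lipid genes summed to 52521 to 55583 in the arrays labelled KO and 69709 to 69814 in the WT arrays. Such sums weigh the brightest genes most. All 9 alveolar type I markers had lower means (median −0.67, 2 past the test), as did 7 of 8 endothelial markers (median −0.37), of which *Car4* passed, and all 6 macrophage markers (median −0.31, and −0.17 without WT replicate 2). Summed levels were 29281 to 29790 and 44531 to 45612 for alveolar type I cells, 22854 to 24166 and 30890 to 32028 for endothelium, and 1999 to 2130 and 2370 to 2892 for macrophages, in the arrays labelled KO and in the WT arrays in each case. Pan-epithelial markers had a median of 0.041, with 4 of 6 means higher and differences from −0.089 to 0.69. The highest was that of *Epcam* (0.69, standard error 0.19, adjusted p = 0.178), which was 0.44 without WT replicate 1. Summed levels of the pan-epithelial markers were 21016 to 22285 in the arrays labelled KO and 19971 to 22541 in the WT arrays. Markers of mesenchyme and lipofibroblasts had a median of 0.0072, with summed levels of 36517 to 37073 and 36763 to 38266. The pan-epithelial median was negative without WT replicate 1 (−0.058) and without KO replicate 1 (−0.018). That of mesenchyme and lipofibroblasts was negative whichever array was left out, at −0.086 to −0.014. All 4 markers of club cells had lower means (median −0.64), of which *Scgb1a1* passed the test (−2.69, adjusted p = 0.00283), with summed levels of 7165 to 7833 in the arrays labelled KO and 15032 to 16578 in the WT arrays. Markers of cycling cells had higher means in 9 of 9 (median 0.84), with summed levels of 28201 to 29885 and 12875 to 20160, and those of heart muscle in 6 of 6 (median 0.71), with 14336 to 16237 and 8994 to 9767. Of these, *Nppa* of heart muscle passed the test (1.78, adjusted p = 0.0172), and no cycling cell marker did. At an unadjusted p under 0.05, 9 of 9 cycling cell markers were higher, where 5.88% of all genes were. Beside the counts of these marker lists, 58.8% of all genes had a lower mean and 0.782% passed the test. Ciliated cell, hepatocyte and erythroid markers had medians of −0.14, −0.17 and −0.10, with none past the test. Adipocyte markers reached at most 7.46 on any array, with summed levels of 487 to 493 and 538 to 549, and those of brown adipocytes reached 8.55. None of the adipocyte and brown adipocyte markers had an unadjusted p under 0.05. The part that these shifts have in the differences of the lipid genes was not tested.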

How the data were processed

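Affymetrix arrays were used, 1 per sample, with biological duplicates of each genotype. The authors deposited log2 values of 30177 probe sets from RMA. The submitters' notes name Expression Console as the software, with no version. RMA subtracts background, forces the arrays toward a shared distribution and combines the probes of a set, so a change common to all genes would be hidden. Detection calls were not part of the values. Exactly 1 gene symbol was annotated for 21789 probe sets and more than 1 for 1621, and 6767 had no name here. Of 19938 genes, 19856 matched RefSeq (GRCm38.p6) by Entrez ID. The annotation release and genome build behind the values are not given in the sources used here, so the only coordinates given are those of promoters in the RefSeq table.

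Genes were compared as KO minus WT by lmFit and eBayes of limma 3.58.1 (R 4.3.3), with 2 residual and 4.42 prior degrees of freedom, with Benjamini-Hochberg adjustment over all genes and a threshold of 0.05. Intervals are 95% intervals from the same fit. Fit and calls were checked on simulated arrays. The simulated errors were independent and had the same spread in both groups, so an outlying array was not modelled. The members and all gene lists were chosen with earlier results of these data known, so counts over lists are descriptions. Values on each array are given for members with an unadjusted p under 0.05, for the extremes of each role, for members of the *Scd*, *Fads*, *Elovl*, *Acsl* and *Lpin* families and for *Acaca*. Of other lists up to 4 genes with the smallest p are named, and of marker lists up to 3. Further genes, such as *Sftpc*, *Etv5*, *Elovl2*, *Cds2* and the other *Scd* genes, were chosen after their values were seen. Ratios of related genes within an array used an exact permutation test. Promoters were read from the RefSeq table, with 250 bases before each start. Plots used matplotlib 3.10.9 (Python 3.11.15).

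Other settings were the array number as a block, centring on each array's median, cyclic loess, a filter on the dimmest 40 percent, averaging a gene's probe sets, trend and robust in eBayes, an adjusted p of 0.10, and 1 array less at a time, where the lone array of a group is assumed to vary as the other group does. A block with crossed numbers was chosen after seeing the data.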

Additional observations from a re-analysis of the deposited data

How the results depend on the processing

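*Scd1*, *Fabp5* and *Cd36* lost their call only without KO replicate 1 or KO replicate 2, among all settings tried. Leaving out 1 array gave 0 (without KO replicate 2) to 18 (without WT replicate 2) called members and member medians of −0.32 to −0.25. The count over all genes ran between 0 without KO replicate 2, where 968 had an unadjusted p under 0.05, and 6292 without WT replicate 2. *Scd1* had an adjusted p of at most 0.192 over all settings, *Fabp5* of at most 0.763 and *Cd36* of at most 0.895. Over all genes, 156 calls became 457 at an adjusted p under 0.10, 335 under cyclic loess and 301 once the dimmest 40 percent were dropped, and each of these called 4 members. The replicate number as a block gave 602 genes and 5 members, adding *Fasn* and *Lpl*. The deviations of arrays with the same number correlated at −0.24. With 2 arrays per group, this value cannot settle whether the number pairs the samples. A crossed block, chosen after seeing the data, gave 512 genes and 4 members. Directions turned for *Acly* (0.031) and *Fads1* (0.025) after centring arrays on their medians. With 1 array left out, differences ran from −0.069 to 0.049 for *Acly*, −0.068 to 0.036 for *Fads1*, −0.36 to 0.25 for *Agpat2*, −0.17 to 0.028 for *Dgat1*, −0.10 to 0.23 for *Pcyt1b*, −0.0091 to 0.37 for *Pemt*, −0.32 to 0.010 for *Plin2* and −0.41 to 0.066 for *Pnpla2*. The other 28 members kept their direction in every setting tried. The cause of these changes was not tested.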
